A study of Mus musculus with 4 samples.

Results

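Osteopontin (Spp1) and 9 genes of matricellular or adhesive matrix proteins (Sparc, Sparcl1, Thbs1, Thbs2, Thbs3, Tnc, Postn, Fn1 and Mgp) were examined, 10 genes among the 55416 in the deposited transcript estimates. They were taken by gene symbol, with Spp1 chosen by its very high measured level in all of the libraries, so the levels below are a description with no test. The libraries came from C2C12 cells, an established mouse myoblast line, that were transfected with a lipid reagent and 3 µg of DNA for wild-type lamin A (WT, 2 libraries) or for K97E lamin A (K97E, 2 libraries). Cells were harvested 24 hours later and total RNA was made into stranded mRNA libraries. K97E is a lamin A variant that the series abbreviates as a DCM mutant, DCM being the usual short form of dilated cardiomyopathy, a disease of enlarged and weakened heart muscle. Both groups carried a transfected lamin A on top of the cells' own Lmna gene. Untransfected cells were not analysed here, and the promoter, the species of the lamin A DNA and the share of cells that took it up are not given in the sources used here. The K97E titles spell the line C1C12, while the cell line field gives C2C12 for all 4 libraries. The labels call the 2 libraries of a group biological replicates without saying whether they came from separate cultures, so p-values measure only the spread between these libraries.

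Matricellular proteins are secreted into the extracellular matrix, where they mostly regulate how cells attach, migrate and respond to growth factors rather than bear load. Osteopontin is an acidic phosphoprotein that binds integrins through an Arg-Gly-Asp sequence and also binds CD44. It is best known in bone and in activated macrophages, and it appears in skeletal muscle during regeneration. Fibronectin (Fn1) is a structural adhesive protein that assembles into fibrils, and thrombospondins, tenascin C and SPARC modulate the contacts that cells make with it and with collagen.

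The Arg-Gly-Asp triplet is shown for osteopontin because it is the cell-binding site of the most abundant member. The 60 bases come from the GENCODE M21 transcript of Spp1 and lie at chr5:104439457-104439516 on the plus strand of GRCm38, and the capitals mark the codons for Arg, Gly and Asp.
Spp1: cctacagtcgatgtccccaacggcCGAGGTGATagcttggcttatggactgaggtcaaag
In the GENCODE M21 coding sequences of the leading transcripts, the in-frame triplet occurred at codon 144 of the 294 codons of Spp1. It occurred 1 time in Thbs1, 1 time in Thbs2 and 2 times in Fn1, and 0 times in Sparc, Sparcl1, Thbs3, Tnc, Postn and Mgp. The match is to letters of the reference sequence and is no measurement of binding in these cells.

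Levels are given in TPM (a length-corrected share of the library, scaled to sum to 1000000), summed over the transcripts of a gene. Levels, means and SDs are of the deposited TPM. The log2 differences below are of TPM divided by a further factor per library, so the sign can differ from that of the means. Spp1 stood far above the other members. It reached 6025 and 5628 TPM in WT and 5458 and 5695 TPM in K97E, a mean of 5701 TPM or 0.57% of all TPM. It was the gene with the 9th highest mean of the 55416 genes and the 3rd highest of 21864 protein-coding genes outside the mitochondrial genome. The next member, Sparc, was 3.63-fold lower. All members together took 0.963% of TPM.

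Below Spp1, the order of the mean levels was Sparc and Fn1, then Thbs1, then Tnc and Thbs2, then Mgp and Thbs3, and last Postn and Sparcl1. The ranges of the 4 libraries overlapped within each of these pairs and did not overlap between the steps. Compared library by library, Tnc was above Thbs2 and Mgp above Thbs3 in all 4 libraries. Postn was above Sparcl1 except in WT replicate 2. Sparc was above Fn1 in both WT libraries and slightly below it in both K97E libraries (1734 against 1756 and 1426 against 1447 TPM). That order was not tested. 6 of the 10 genes were above 100 TPM. The 2 lowest were below the 0.5 TPM mean required for the test, so 8 were tested.

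**Figure D1:**
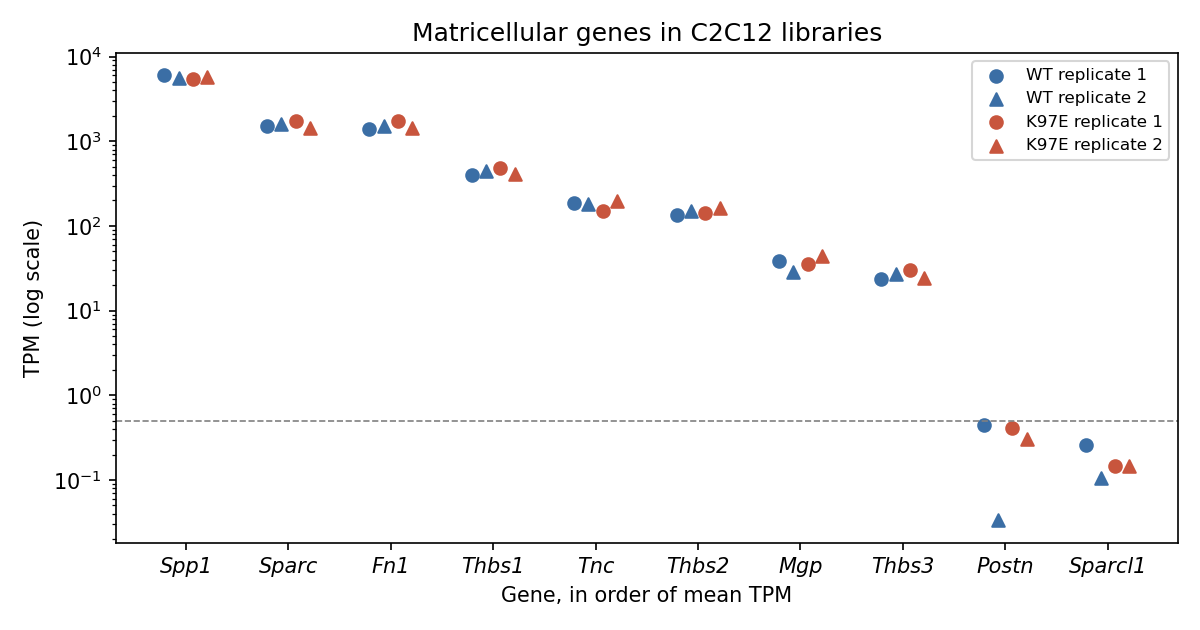
TPM of each gene (log axis) in each of the 4 libraries, WT in blue and K97E in red, with genes ordered by mean. Spp1 lies between 5458 and 6025 TPM in all 4 libraries, while Postn and Sparcl1 lie below 0.5 TPM.

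With K97E lamin A, none of the 8 tested members passed the test (limma on log2(scaled TPM + 0.5), Benjamini-Hochberg adjustment over 16304 genes, threshold 0.05). The background was itself low, with 0.00613% of all tested genes called, which is 1 gene, and it was higher with K97E. The adjusted p-values of the members ran from 0.965 to 0.993, and 0 of the 8 had an unadjusted limma p under 0.05, against 3.68% of all tested genes (the lowest was 0.315). By value, 5 members were higher and 3 lower, with a median log2 difference of 0.02 against -0.0017 over all tested genes. The median size of the difference, regardless of sign, was 0.06 for the members and 0.10 for all tested genes. On the deposited TPM scale 0 of the 8 members had groups that did not overlap, where 35.6% of all tested genes did. After scaling for composition 1 did (Spp1, lower with K97E), against 33.1% of all tested genes. An exact permutation test of 2 against 2 libraries cannot go below 0.333, so single values were not tested that way. In bulk RNA, fewer expressing cells and less RNA per cell cannot be told apart.

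Spp1 lies on chromosome 5 at 104582984-104588916, plus strand (coordinates here and for the other genes are those of the deposited GRCm39 files). Its WT mean was 5826 ± 281 TPM and its K97E mean 5576 ± 168 TPM (SD, n = 2 each). The highest value was WT replicate 1 and the lowest K97E replicate 1, with the other libraries between, so the groups overlapped as deposited. The log2 difference of K97E from WT was -0.12, with a standard error of 0.18 and a 95% interval from -0.58 to 0.33 (limma adjusted p = 0.965). As a ratio that interval runs from 0.671 to 1.26. The value rested on 368653 to 415684 estimated reads per library. Quantile scaling turned the sign, to 0.06.

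The secreted counter-adhesive and calcium-binding glycoprotein SPARC (Sparc, chromosome 11 at 55285326-55314009, minus strand) was measured at 1532 and 1597 TPM in WT and at 1734 and 1426 TPM in K97E. Both extremes were K97E libraries, so the WT values lay inside the K97E range. The means of deposited TPM were 1564 ± 45.8 and 1580 ± 218 (SD, n = 2 each). On the scaled TPM the log2 difference was -0.05 with a standard error of 0.14 (interval -0.40 to 0.30, limma adjusted p = 0.985). Its relative Sparcl1 (chromosome 5 at 104226977-104261599, minus strand) was close to the floor, at 0.261 and 0.106 TPM in WT and 0.144 and 0.148 TPM in K97E. Those values came from 15 to 31 estimated reads per library, too few to compare the groups.

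Fibronectin mRNA (Fn1, chromosome 1 at 71624679-71692359, minus strand) was as abundant as Sparc. It was measured at 1390 and 1524 TPM in WT and at 1756 and 1447 TPM in K97E. K97E replicate 1 was highest, and K97E replicate 2 fell between the WT libraries. The means were 1457 ± 94.8 and 1601 ± 219 TPM (SD, n = 2 each), with a log2 difference of 0.07, a standard error of 0.14 and an interval from -0.28 to 0.43 (limma adjusted p = 0.972).

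Thrombospondins 1 and 2 are trimeric and inhibit angiogenesis, whereas thrombospondin 3 belongs to the pentameric subgroup. Thbs1 (chromosome 2 at 117942357-117957614, plus strand) was by far the most abundant of the 3 genes, at 401 and 448 TPM in WT and 481 and 416 TPM in K97E. Thbs2 (chromosome 17 at 14885762-14914497, minus strand) was at 136 and 150.5 TPM in WT and at 141 and 163 TPM in K97E. Thbs3 (chromosome 3 at 89122487-89134144, plus strand) was at 23.8 and 27.1 TPM in WT and at 29.9 and 24.0 TPM in K97E. In each of the 3 genes the highest value was a K97E library and the lowest WT replicate 1, with the remaining 2 libraries of the 2 groups interleaved. Their log2 differences were 0.02 (standard error 0.11, interval -0.26 to 0.30) for Thbs1, 0.03 (0.13, -0.28 to 0.34) for Thbs2 and 0.02 (0.13, -0.30 to 0.34) for Thbs3. The limma adjusted p-values were 0.992, 0.990 and 0.993. Mtx1, at a mean of 55.7 TPM, overlaps exons of Thbs3 on the opposite strand, and reads were assigned without strand, so the Thbs3 value is less certain than the others.

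Tenascin C (Tnc, chromosome 4 at 63878022-63965252, minus strand), a hexameric glycoprotein that weakens adhesion to fibronectin, was at 187 and 182 TPM in WT. The K97E libraries stood on either side, at 150 and 198 TPM. The means were 185 ± 3.92 and 174 ± 33.9 TPM (SD, n = 2 each), and the log2 difference was -0.16 with a standard error of 0.16 and an interval from -0.57 to 0.25 (limma adjusted p = 0.965). Periostin (Postn, chromosome 3 at 54268530-54298458, plus strand), a fasciclin-domain protein of collagen-rich tissue, was near absent. Its values were 0.446 and 0.0334 TPM in WT and 0.408 and 0.302 TPM in K97E, from 5 to 61 estimated reads.

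Matrix Gla protein (Mgp, chromosome 6 at 136849433-136852821, minus strand), an inhibitor of calcification whose glutamates are carboxylated in a vitamin K-dependent step, had the largest difference by value among the tested members. It was measured at 38.3 and 28.8 TPM in WT and at 35.9 and 44.4 TPM in K97E, so the groups overlapped. The means were 33.6 ± 6.74 and 40.2 ± 6.01 TPM (SD, n = 2 each). The log2 difference was 0.20 with a standard error of 0.18 and an interval from -0.26 to 0.67, a ratio of 0.837 to 1.59 (limma adjusted p = 0.965).

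Single libraries set the sign of most of these differences. Without K97E replicate 1 the log2 difference was -0.03 for Fn1, -0.05 for Thbs1, -0.10 for Thbs3 and 0.07 for Tnc, each opposite in sign to the value over 4 libraries. Without WT replicate 1 it was -0.06 for Thbs1, -0.04 for Thbs2 and -0.07 for Thbs3. Without K97E replicate 2 it was 0.06 for Sparc and -0.11 for Thbs2. Spp1 stayed below 0 with any 1 library left out, between -0.18 and -0.06, and Mgp stayed above 0, between 0.0007 and 0.41. No member was called in any of these fits.

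**Figure D2:**
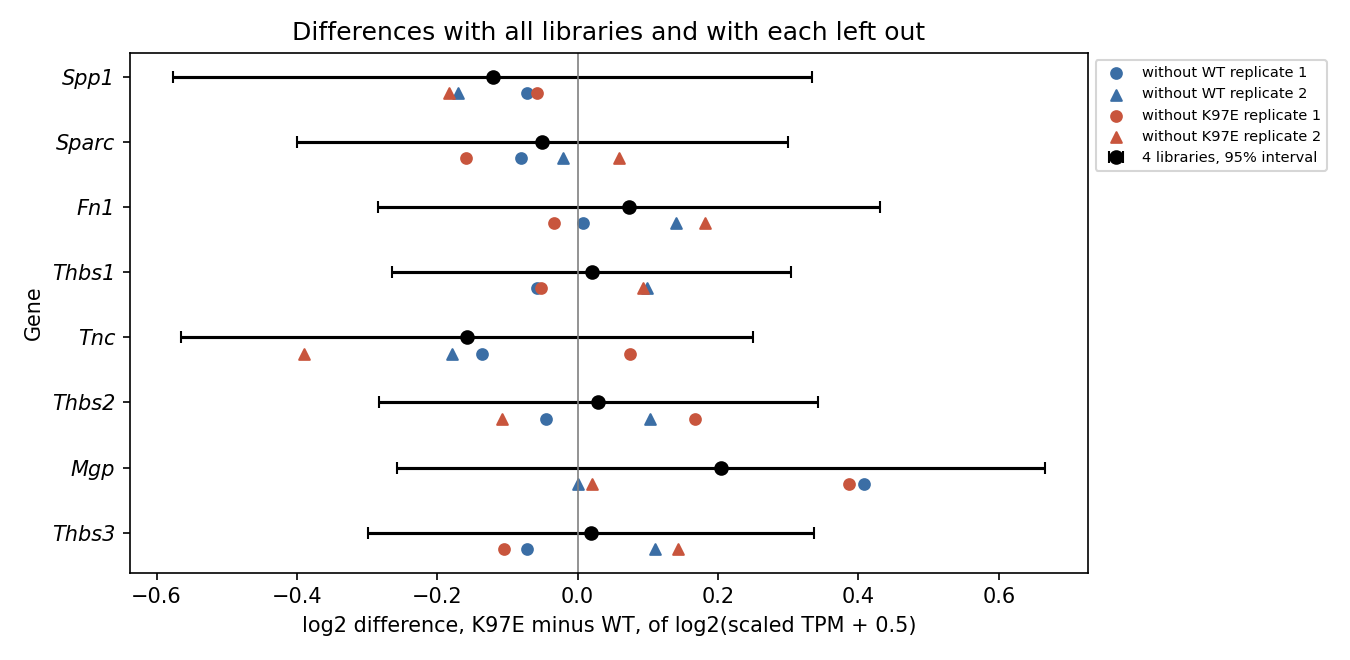
log2 difference of K97E from WT for the 8 tested genes over all 4 libraries (black point, bar = 95% interval) and with each library left out in turn (coloured symbols). Every interval includes 0, and for 6 of the 8 genes the coloured symbols fall on both sides of 0.

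Although the Spp1 total was steady, its estimated division among transcripts was not. The 2 leading transcripts carried 97.4% and 99.3% of Spp1 TPM in WT and 97.6% and 99.1% in K97E. ENSMUST00000112748 was at 5087 TPM in WT replicate 1, 2197 in WT replicate 2, 4610 in K97E replicate 1 and 2216 in K97E replicate 2. ENSMUST00000031243 was at 780 and 3393 TPM in WT and at 717 and 3425 TPM in K97E, with replicate 1 named first. The first transcript therefore led in both replicate 1 libraries and the second in both replicate 2 libraries, with the 2 lamin A groups overlapping. The transcripts differ in where the first exon ends, giving first exons of 128 and 79 bases, and in the outer ends by 3 bases. Their GENCODE M21 coding sequences are identical, at 294 codons.

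The estimated split moved with the replicate number and not with lamin A. Rn18s, the 18S ribosomal RNA gene, also took more of the library in each replicate 2, with 2.35% and 4.44% of TPM in WT and 1.86% and 5.28% in K97E. Its part in the split was not tested. Raw depth over the 128-base first exon was 6323 and 8075 in WT and 9268 and 8844 in K97E, with replicate 1 named first. These depths are not corrected for library size, and estimated reads were fewest in WT replicate 1 and most in K97E replicate 1. They therefore cannot show whether this exon followed the replicate number. Most of the exon, 104582987-104583062, is also held by the second transcript. The next exon was at 25567 and 30366 in WT and at 31851 and 32803 in K97E. Whether the split lay in the RNA or in the assignment of reads between these 2 similar transcripts was not tested. Gm42793, a gene model on the same strand with a mean of 10.0 TPM, overlaps Spp1 exons, so a small part of the Spp1 reads is uncertain. Over the transcripts of the members, the share within the gene had groups that did not overlap for 10 of 29 transcripts, close to the 34.3% seen over 23220 transcripts of all genes.

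**Figure D3:**
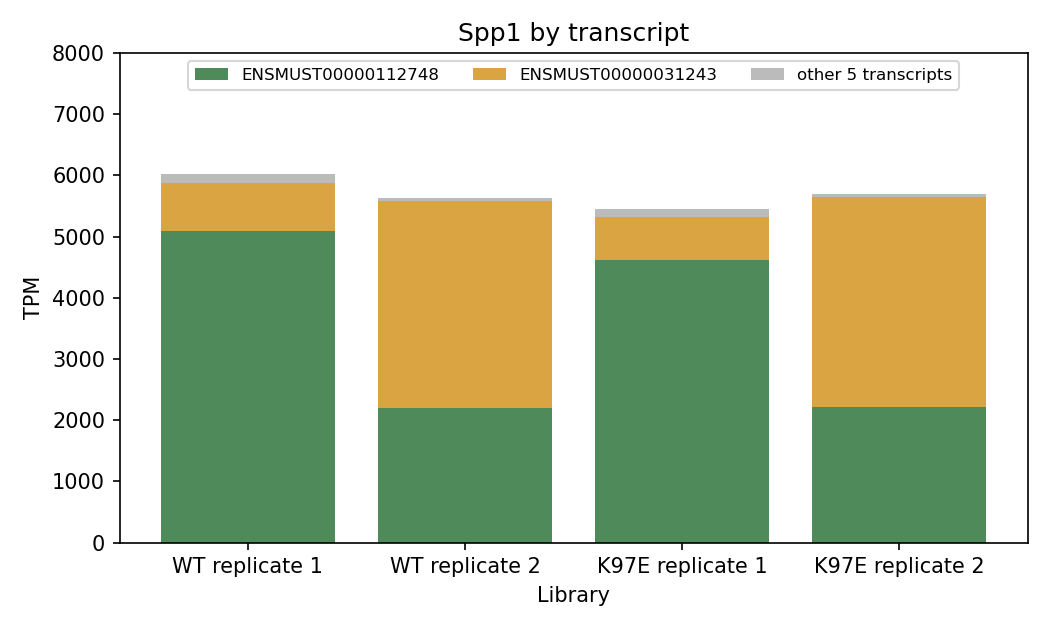
TPM of the Spp1 transcripts, stacked in 1 bar per library (the 2 leading transcripts in green and orange, the others in grey). In these estimates the 2 leading transcripts trade places between replicate 1 and replicate 2 of each lamin A group, while their sum stays between 5328 and 5868 TPM.

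Spp1 lies in a chromosome 5 cluster with Dmp1, Ibsp and Mepe, acidic integrin-binding proteins of bone and tooth that share its evolutionary origin. These neighbours were at or near 0. Mepe, 96507 bases away, was listed at 0 in all 4 libraries, Ibsp was at most 0.0225 TPM and Dmp1 lay between 0.0915 and 0.114 TPM. Of the 11 protein-coding neighbours within 500 kb, 7 were below 0.5 TPM. The 4 others included Pkd2, 18400 bases away, at 25.3 to 29.0 TPM, and Nudt9, at 73.9 to 105 TPM.

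Fibronectin mRNA is spliced at 3 places, and the forms differ in how the protein is deposited and which integrins it binds. The EDA and EDB exons each encode an extra type III repeat, which are typical of embryonic and wound tissue, and the V region holds the CS1 segment, bound by integrin α4β1 through Leu-Asp-Val. The sequences of these segments are shown because the splicing results below turn on them. They come from GENCODE M21 transcripts on the minus strand of GRCm38, at chr1:71603660-71603929 for EDA, chr1:71613763-71614035 for EDB and chr1:71597673-71597747 for the first 25 codons of the V region. The capitals in the V region mark the Leu-Asp-Val codons.
Fn1 EDA: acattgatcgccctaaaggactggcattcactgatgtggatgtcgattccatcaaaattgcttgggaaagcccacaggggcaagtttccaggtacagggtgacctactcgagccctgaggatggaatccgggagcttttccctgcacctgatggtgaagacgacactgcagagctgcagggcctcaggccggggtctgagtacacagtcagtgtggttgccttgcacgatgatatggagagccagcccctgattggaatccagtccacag
Fn1 EDB: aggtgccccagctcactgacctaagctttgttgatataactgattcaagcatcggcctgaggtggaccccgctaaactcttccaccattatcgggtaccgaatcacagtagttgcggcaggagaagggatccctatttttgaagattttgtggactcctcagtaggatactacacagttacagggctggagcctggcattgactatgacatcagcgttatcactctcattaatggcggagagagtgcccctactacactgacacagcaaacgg
Fn1 V region, first 25 codons: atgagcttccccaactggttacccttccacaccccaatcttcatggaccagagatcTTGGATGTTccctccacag

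Depth over the EDA exon (chromosome 1 at 71642819-71643088, 90 codons) was 48.3% and 42.1% of the depth of its flanking exons in WT and 44.1% in both K97E libraries. EDB (71652922-71653194, 91 codons) was lower, at 21.1% and 18.2% in WT and 16.8% and 24.0% in K97E. For both exons the groups overlapped. Fn1 mRNA in these cells thus held EDA in a larger part of its depth than EDB, in each of the 4 libraries.

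The V region was included at a higher level than either extra repeat, although the reference differed. EDA and EDB were set against their flanking exons, and the V segments against the remaining part of their own exon. The first 25 codons of the V region (71636832-71636906, 75 bases) had 77.9% and 71.8% of that depth in WT and 84.5% and 85.6% in K97E. The next 95 codons (71636547-71636831, 285 bases) had 89.8% and 87.6% in WT and 92.8% and 93.0% in K97E. Both K97E libraries were above both WT libraries for each segment, a difference that was not tested. Relative to the constitutive exons of the gene instead, the first segment stayed higher in K97E (98.3% and 101% in WT, 107% and 106% in K97E), but the next 95 codons did not (113% and 123% in WT, 118% and 115% in K97E). Read depth along Fn1 was also less even in WT replicate 1 than in the other libraries, and its part in these shares was not tested.

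The transcript estimates divided Fn1 among 7 full-length coding forms. The form without EDA and EDB and with all 120 codons of the V region (ENSMUST00000186129) was at 556 and 325 TPM in WT and 754 and 563 TPM in K97E. The form with both extra repeats (ENSMUST00000055226) was at 367 and 506 TPM in WT and 592 and 571 TPM in K97E. These 2 forms were the most abundant in every library. The remaining 5 forms each lay between 47.8 and 198 TPM. Summed over these forms, the share with EDA was 47.7% and 64.9% in WT and 48.5% and 53.2% in K97E. In WT replicate 2 that is 64.9% against 42.1% by exon depth. For EDB the transcript estimates were above the exon depth in all 4 libraries, at 27.2% and 34.4% in WT and 34.8% and 40.6% in K97E. The estimated inclusion of both exons therefore depended on the measure, and for EDB in each library.

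Tnc is also spliced, in a run of fibronectin type III repeats. One cassette exon (chromosome 4 at 63902697-63902969, 91 codons) was mostly skipped, with 8.31% and 8.99% of the flanking depth in WT and 7.64% and 9.75% in K97E. The 4 upstream exons of the same length are held by every annotated full-length transcript. They were at 53.2% to 84.8% of the flanking depth, with the lowest value of the first, the second and the third in WT replicate 1. In the first and the third both K97E libraries were above both WT libraries. In Sparc, the form with the shorter of 2 alternative exons (57 against 60 bases, chromosome 11 from 55298046) made up 80.2% and 75.2% in WT and 82.8% and 75.2% in K97E. Of the 10 exon shares computed over the members, 4 had groups that did not overlap, the Fn1 V segments and these Tnc exons. The same share over all genes was not computed for exon depth. For transcript shares it was 34.3%, and the count of 4 is not read as a result about the members.

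**Figure D4:**
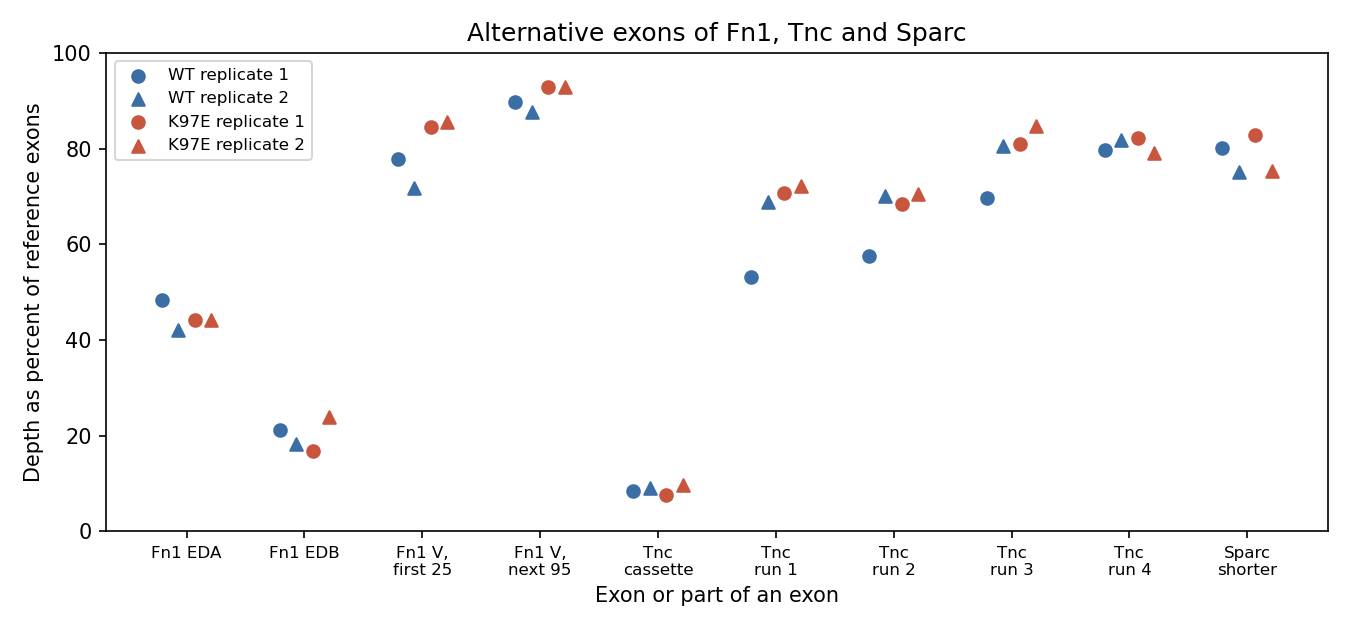
Depth of alternative segments of Fn1, of Tnc exons and of the Sparc short form, as a percentage of the reference depth, in each library (WT blue, K97E red). Of the Tnc exons, only the cassette exon is alternative among the annotated full-length transcripts. For the first 25 codons of the Fn1 V region both K97E libraries lie above both WT libraries, at 84.5% and 85.6% against 77.9% and 71.8%.

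Depth fell toward the 5′ end of the long members. A ratio of the first 500 to the last 500 exonic bases was taken, with each base given the mean depth of its exon. For Fn1 and Thbs1 the value of the last bases is therefore the mean of the whole last exon. The ratio was 0.413 and 0.493 in WT and 0.565 and 0.569 in K97E for Fn1. For Thbs1 it was 0.538 and 0.714 in WT and 0.797 and 0.801 in K97E. Over the 7 members above 0.5 TPM that were long enough, the ratio was lowest in WT replicate 1 for 6, the exception being Thbs3. The variation of depth between exons, as a coefficient of variation, was highest in WT replicate 1 for 7 of the 7, for example 0.423 for Fn1 against 0.278 in WT replicate 2, 0.261 in K97E replicate 1 and 0.251 in K97E replicate 2. The part of this in the differences of the members was not tested, and the differences without WT replicate 1 are given above.

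**Figure D5:**
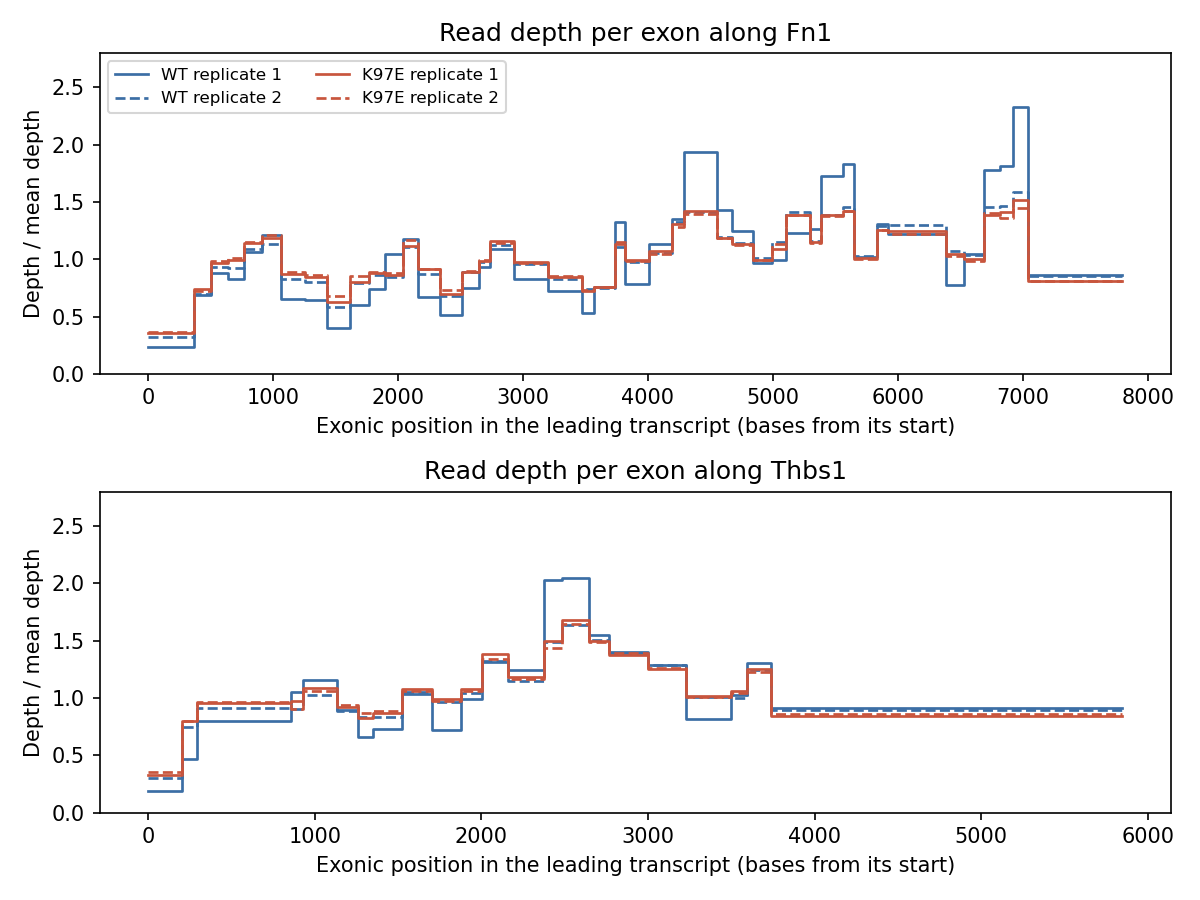
Depth of each exon divided by the mean depth of the transcript, along the leading transcripts of Fn1 and Thbs1, in each library. WT replicate 1 departs most from the others, falling lower near the 5′ end and rising higher in several exons, while the K97E libraries and WT replicate 2 run close together.

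The receptors through which these proteins act were mostly expressed. Of 20 receptor genes, 15 were tested and 0 were called, with 9 higher and 6 lower by value and a median log2 difference of 0.06. Groups did not overlap for 7 of the 15 (46.7%), against 35.6% of all tested genes. The integrin β1 subunit gene Itgb1, shared by fibronectin and collagen receptors, was at 375 and 365 TPM in WT and 399 and 354 TPM in K97E. Cd47, a thrombospondin 1 receptor, was at 271.5 and 271.1 TPM in WT and at 261 and 267 TPM in K97E. Lrp1, which clears thrombospondins, was at 227 and 312 TPM in WT and at 339 and 304 TPM in K97E.

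The receptors with the smallest unadjusted p were Itgb3, Itga3 and Itgav, all higher by value. Itgb3 and Itgav form the αvβ3 integrin that binds osteopontin. Itgb3 was at 11.1 and 12.2 TPM in WT and 15.5 and 14.4 TPM in K97E, a log2 difference of 0.29 with a standard error of 0.11 (limma adjusted p = 0.965). Itgav was at 47.6 and 50.6 TPM in WT and at 59.7 and 53.6 TPM in K97E. Itga3 was at 48.4 and 60.2 TPM in WT and at 72.1 and 63.2 TPM in K97E. In all 3 genes both K97E libraries were above both WT libraries, and none of the 3 passed the test. The osteopontin receptor gene Cd44 lay between 211 and 260 TPM and the fibronectin receptor gene Itga5 between 121 and 151 TPM, whereas Itga4, Itga8 and Itga9 were at most 0.02 TPM. Itga4 encodes the subunit that binds the CS1 segment.

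Of the other matricellular and adhesive matrix genes, 22 were measured, 14 tested and 0 called, with 11 higher and 3 lower by value and a median log2 difference of 0.06. Groups did not overlap for 4 of them (28.6%). The most abundant were Vcan (versican), at 367 and 440 TPM in WT and 388 and 338 TPM in K97E, and Fstl1, a secreted relative of SPARC, at 366 and 411 TPM in WT and 422 and 405 TPM in K97E. Ccn4, a secreted Wnt target, was at 69.1 and 68.6 TPM in WT and 79.3 and 73.4 TPM in K97E. Ccn2, a connective tissue growth factor gene, was low, at 1.46 and 1.07 TPM in WT and 1.64 and 2.04 TPM in K97E. Spock2, another SPARC relative, was at 5.47 and 5.01 TPM in WT and at 5.99 and 6.90 TPM in K97E.

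Among 15 genes of enzymes that modify or cut the members, 14 were tested and 0 were called, with 9 higher and 5 lower by value. Fam20c, the secretory-pathway kinase that phosphorylates osteopontin, was at 29.0 and 28.9 TPM in WT and at 27.5 and 23.5 TPM in K97E, a log2 difference of -0.24 with a standard error of 0.10 (limma adjusted p = 0.965). The cathepsin B gene Ctsb was at 661 and 791 TPM in WT and at 838 and 699 TPM in K97E, and the membrane matrix metalloprotease gene Mmp14 at 231 and 198 TPM against 221 and 231 TPM. Bmp1, a procollagen protease, was at 77.1 and 93.2 TPM in WT and at 102 and 90.4 TPM in K97E. Tgm2, a transglutaminase that crosslinks fibronectin and osteopontin, was at 9.36 and 7.61 TPM in WT and at 6.07 and 7.73 TPM in K97E. Mmp3 (stromelysin), which cleaves osteopontin, was at 6.57 and 9.73 TPM in WT and at 5.91 and 6.62 TPM in K97E.

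Genes with a pattern like that of Spp1 over the 4 libraries were sought among 1675 other genes of at least 100 TPM, by the root mean square distance of their scaled log2 values after removing each gene's mean. Ncstn (nicastrin, a γ-secretase subunit) was nearest at 0.0060, followed by Rab5c (a small GTPase of early endosomes) at 0.0080 and Mrpl13 (a mitochondrial ribosomal protein) at 0.010. The median distance over the compared genes was 0.113. With 4 libraries this is a description only.

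Most listed markers of the labelled myoblast line were detected. 7 of the 8 myoblast genes measured (9 listed) were at 1 TPM or above, with summed levels of 640 and 722 TPM in WT and 626 and 610 TPM in K97E. These sums came mostly from Des, at 384 to 467 TPM. Of the 7 tested, 0 were called, with 2 higher and 5 lower by value. Their groups did not overlap for 4 (57.1%), against 35.6% of all tested genes. An unadjusted limma p under 0.05 was found for 2 of the 7, against 3.68% of all tested genes. These were Chrna1 and Vcam1, both lower by value and neither called. Chrna1 was at 49.8 and 51.8 TPM in WT and at 40.2 and 41.3 TPM in K97E. Vcam1 was at 63.8 and 64.7 TPM in WT and at 45.8 and 52.6 TPM in K97E. Myf5 lay between 41.5 and 47.8 TPM, Myod1 between 4.56 and 4.96 TPM and Myog at or below 0.10 TPM. Spp1 is also abundant in osteoblasts and macrophages, and the genes of those lists were split between low and clearly detected. Of 8 osteoblast genes 4 were at 1 TPM or above, summing to 37.7 and 39.8 TPM in WT and 45.3 and 38.6 TPM in K97E, mostly from Runx2 at 25.3 to 29.0 TPM. Bglap2 lay between 3.55 and 9.09 TPM and Phex between 4.01 and 5.13 TPM, while Sp7 and Alpl were at most 0.0329 and 0.133 TPM. Of 8 macrophage genes 3 were at 1 TPM or above, summing to 47.8 to 64.6 TPM, mostly from Cd14 at 42.7 to 57.1 TPM, with Cd68 at 3.17 to 5.48 TPM. Adgre1 was listed at 0 in all libraries, Ptprc was at most 0.05 TPM and Csf1r at most 0.22 TPM. Of the 7 fibroblast genes measured (8 listed) 3 were at 1 TPM or above, summing to 96.1 to 112 TPM, with Pdgfrb at 59.1 to 74.5 TPM and Lum listed at 0. Of 6 smooth muscle genes, 1 of which (Des) is also a myoblast marker, 4 were, summing to 852 to 1144 TPM, with Acta2 at 360 to 632 TPM and Myh11 and Cnn1 at most 0.0523 and 0.0526 TPM. Of 3 endothelial genes measured (6 listed) 1 was, Cdh5 at 17.1 to 20.3 TPM, while Pecam1 was at most 0.16 TPM. The part of other cell types in the values of the members was not tested. Estimated reads ranged from 89612698 to 115619092 per library, the mitochondrial share of TPM from 5.29% to 7.37% (highest in WT replicate 1), and genes at 1 TPM or above from 14463 to 14684.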

How the data were processed

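RNA-seq of 4 C2C12 libraries, grouped by the genotype label, was analysed from transcript estimates. Per the file headers, StringTie 2.1.7 estimated annotated Ensembl 104 transcripts without a strand option. The submitters' processing notes give GRCm39 and name HISAT2. The authors' deposited files hold coverage, FPKM and TPM, together with exon coverage, for 142434 transcripts. TPM was summed per gene and divided by a median-of-ratios factor. Estimated reads are coverage times length over 100 and are not counts, so no counting interval was computed. limma 3.58.1 (R 4.3.3) was fitted with a mean-variance trend to log2(scaled TPM + 0.5) of 16304 genes with a mean of at least 0.5 TPM, with two-sided Benjamini-Hochberg p-values at 0.05. That scale understates changes of low genes. The script was tested on simulated data. Exon shares are deposited exon coverage over the mean of reference exons. For the Fn1 V region the reference was the rest of the same exon, and for Sparc the sum of both forms. Coordinates are the files' own, and sequences are from GENCODE M21 (GRCm38), matched by transcript. Members and lists were chosen with earlier results of these data known. The text names all members and, of each list, the 3 genes with the highest mean and the 3 with the smallest p at 1 TPM or above. Other list and marker genes, neighbours and exon windows were chosen after values were seen. The replicate numbers were not taken to pair libraries. Alternatives covered filter, pseudocount, scaling, model, block and each library left out.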

Additional observations from a re-analysis of the deposited data

How the results depend on the processing

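No member was called under any alternative. The number of genes called, 1 in the report, was 0 with no filter on low genes (1389 at an unadjusted limma p under 0.05), 2 with TPM as deposited, 2 without the mean-variance trend, 4 with voom weights on estimated reads and 0 with the replicate block (406 at an unadjusted p under 0.05). It ranged from 0 to 12 with 1 library left out, reaching 12 without WT replicate 1 and 0 without any other. The labels do not say that a number marks a shared culture, and the deviations of the replicate 1 libraries correlated at -0.137. A crossed replicate block, added after seeing the data, gave 30 (3 higher, 27 lower). The cause of these changes was not tested. Signs turned for Spp1 under quantile scaling (0.0625), for Sparc with TPM as deposited (0.0076) and for Itgb1 with TPM as deposited (0.0232) and quantile scaling (0.0101). With 1 library left out, log2 differences that turned ran from -0.16 to 0.0585 (Sparc), -0.034 to 0.18 (Fn1), -0.0586 to 0.0992 (Thbs1), -0.39 to 0.074 (Tnc), -0.11 to 0.17 (Thbs2), -0.10 to 0.14 (Thbs3), -0.0893 to 0.13 (Mmp14), -0.11 to 0.15 (Ctsb), -0.0131 to 0.26 (Bmp1), -0.0513 to 0.12 (Fstl1), -0.0886 to 0.0189 (Itgb1) and -0.0187 to 0.44 (Lrp1). Of 475 log2 differences of 28 genes under alternatives, 454 kept their direction and 21 turned. The filters, the fits without the trend or with a robust variance, and the replicate blocks cannot change a log2 difference here. Their entries could only count as kept, so the tally is no measure of stability. It also leaves out the number of genes called and the Fn1 exon shares, which moved under several alternatives. Relative to constitutive exons, the EDA share was 50.7% in WT and 52.1% in K97E, the first 25 codons of the V region 99.8% and 107%, and the next 95 codons 118% and 116%. With 2 libraries a group, the intervals of the members leave room for differences up to the bounds given, and levels of Postn and Sparcl1 rest on few reads.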
